A study of Mus musculus with 50 samples.

Results

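The matrix metalloproteinases (Mmp genes), the ADAMTS proteases (Adamts), the ADAMTS-like proteins (Adamtsl) and the tissue inhibitors of metalloproteinases (Timp) were followed in the gastrocnemius muscle of ageing mice. All gene symbols that begin with Mmp, Timp, Adamts or Adamtsl and a number were taken, which gave 47 of the 23880 genes in the count table. The 26 members that reached 1 TPM in at least 8 of the 50 mice are described below, and the other 21 are accounted for at the end. TPM is an expression level scaled to transcript length and library size, so that it allows levels of different genes to be set side by side.

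The mice were wild-type male C57BL/6JRj animals of 6 ages, with 8 mice each at 8 and 18 months and at 22 and 24 months, and 9 mice each at 26 and 28 months. All were singly caged and fed the AIN93M diet, and by the study's methods mice with overt illness or tumours were left out. That diet began at 18 to 19 months in the animals taken from 22 months on, while the mice of 8 and 18 months were put on it for a separate acclimatisation before sampling. Age and diet history therefore cannot be told apart in comparisons of the 8-month mice with mice of 22 months or more, whereas 28 against 22 months and 26 against 24 months lie within one diet history. Each library was poly(A)-selected RNA of 1 whole muscle from 1 mouse, a mixture of cell types, so that fewer cells of a type and less RNA per cell cannot be told apart in any value below.

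Fibroblasts, vascular cells, immune cells and muscle fibres secrete these enzymes or carry them on the surface. Most MMPs and ADAMTS proteases are made as inactive zymogens, and removal of the prodomain by other proteases, such as furin, activates them, so that an mRNA level is not an enzyme activity. TIMPs bind the active site of MMPs, and Timp3 also inhibits several ADAMTS enzymes and is held in the matrix. In the best-known circuit the membrane-type enzyme Mmp14 binds Timp2, and this complex activates proMmp2, so that Timp2 serves both as inhibitor and as helper. ADAMTS-like proteins resemble the ancillary domains of ADAMTS proteases and have no catalytic domain, and several bind fibrillin microfibrils.

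Promoters of 7 MMP genes clustered on chromosome 9 held less G and C than those of the other members with an entry. Examples from inside and outside the cluster are given. Each RefSeq promoter (GRCm38.p6) runs from 250 bases before to 50 bases after a gene start, on the gene's strand. Capitals mark the 3 motifs searched on both strands, which do not overlap each other in the sequences shown. The AP-1 motif was searched as TGANTCA. The GC box was searched as GGGCGG and appears as its reverse complement where it lies on the other strand. The TATA box was searched as TATAAA. Mmp3 (stromelysin-1, which cleaves proteoglycans and activates other MMPs) and Mmp13 (collagenase-3) lie in 1 cluster on chromosome 9 between 7272514 and 7674979 (GRCm38). The cluster is defined by the 7 members of the count table that lie there. Mmp1a, Mmp1b and Mmp7, which were not analysed, are not counted in it.
Mmp3, chr9:7445572-7445871, plus strand: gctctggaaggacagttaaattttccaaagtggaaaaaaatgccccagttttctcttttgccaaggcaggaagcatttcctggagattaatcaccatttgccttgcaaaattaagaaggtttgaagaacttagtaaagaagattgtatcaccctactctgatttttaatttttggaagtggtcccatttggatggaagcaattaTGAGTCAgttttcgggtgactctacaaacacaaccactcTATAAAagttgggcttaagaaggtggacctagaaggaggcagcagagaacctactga
Mmp13, chr9:7272264-7272563, plus strand: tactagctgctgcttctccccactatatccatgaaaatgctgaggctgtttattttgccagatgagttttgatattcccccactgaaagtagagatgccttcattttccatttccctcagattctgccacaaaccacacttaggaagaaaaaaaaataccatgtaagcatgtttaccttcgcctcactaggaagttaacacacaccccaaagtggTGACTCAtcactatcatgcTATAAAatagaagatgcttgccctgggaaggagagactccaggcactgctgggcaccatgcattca
The other 3 belong to genes outside that cluster whose levels are given below: the inhibitor Timp2, the procollagen protease Adamts2 and the proteoglycanase Adamts9.
Timp2, chr11:118355362-118355661, minus strand: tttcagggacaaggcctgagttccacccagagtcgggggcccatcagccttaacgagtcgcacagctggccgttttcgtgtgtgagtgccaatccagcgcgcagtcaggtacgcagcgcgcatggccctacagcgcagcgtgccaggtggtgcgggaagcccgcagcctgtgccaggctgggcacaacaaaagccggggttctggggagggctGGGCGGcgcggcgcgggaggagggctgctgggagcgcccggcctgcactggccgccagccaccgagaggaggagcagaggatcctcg
Adamts2, chr11:50601835-50602134, plus strand: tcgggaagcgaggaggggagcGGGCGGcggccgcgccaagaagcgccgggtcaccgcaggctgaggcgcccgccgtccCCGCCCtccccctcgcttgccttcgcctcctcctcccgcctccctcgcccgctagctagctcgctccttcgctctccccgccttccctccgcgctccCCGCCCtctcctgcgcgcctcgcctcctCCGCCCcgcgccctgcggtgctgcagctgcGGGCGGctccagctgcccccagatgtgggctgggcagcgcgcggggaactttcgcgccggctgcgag
Adamts9, chr6:92943485-92943784, minus strand: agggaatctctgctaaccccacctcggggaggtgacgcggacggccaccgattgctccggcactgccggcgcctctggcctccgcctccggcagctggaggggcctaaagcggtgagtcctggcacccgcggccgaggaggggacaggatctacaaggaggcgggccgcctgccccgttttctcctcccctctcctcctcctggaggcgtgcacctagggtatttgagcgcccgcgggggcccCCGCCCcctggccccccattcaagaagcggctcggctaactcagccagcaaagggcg

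The AP-1 motif was present in 5 of the 7 members in the chromosome 9 cluster (Mmp3, Mmp10, Mmp12, Mmp13 and Mmp20). It was present in none of the 26 members outside the cluster that had a promoter entry. In Mmp3 the AP-1 motif began at position -46 and the TATA box at position -7 relative to the gene start. In Mmp13 they began at -35 and -16. The TATA box was found in 6 of the 7 cluster genes and in 3 of the 26 others, and the GC box in 0 of the 7 and in 22 of the 26. Among all 27025 genes with an entry, 8.97% held AP-1, 38.2% the GC box and 15.7% the TATA box. Promoters of the cluster had 37.7% to 46.7% G and C, and those of the other members 53.3% to 80.0%, with no overlap. Of these 7 members Mmp3 alone was above the TPM limit. For 6 described members (Adamts10, Adamts5, Adamtsl1, Mmp19, Mmp2 and Mmp9) no promoter is shown. A match of letters is a description of the sequence and not evidence of binding.

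The set was dominated by 2 inhibitors and 1 protease. On the TPM scale the median over 50 mice was 97.5 for Timp3 and 89.5 for Timp2, whose ranges overlapped, and 36.4 for Mmp2 (gelatinase A, which degrades denatured collagen and basement membrane collagen). Adamts1, which cleaves the proteoglycan versican, followed at 23.2 TPM, next to Timp4 at 22.1 and Adamtsl5, a microfibril-associated protein, at 21.7, and these 3 ranges overlapped almost entirely. Adamtsl4, known for its part in holding the eye lens, stood at 13.1 TPM, Mmp14 at 9.64, Mmp15, a second membrane-type MMP, at 9.07 and Adamts5, the main aggrecanase of mouse cartilage, at 6.12. The other 16 described members had medians of 0.768 to 3.10 TPM. Around the TPM limit, Adamts12 passed with 10 mice at 1 TPM, Adamtsl2 with 13, Adamts20 with 14 and Adamts13 with 15, while Mmp12 missed it with 6 mice and Adamts15 with 4. No mouse of 8 or 18 months reached 1 TPM of Adamts13 (highest 0.747 and 0.963 TPM), so it passed only through older mice. For Adamts12 no mouse of 24 or 26 months reached it (highest 0.981 and 0.972 TPM), and most that did were of 8 or 18 months.

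**Figure D1:**
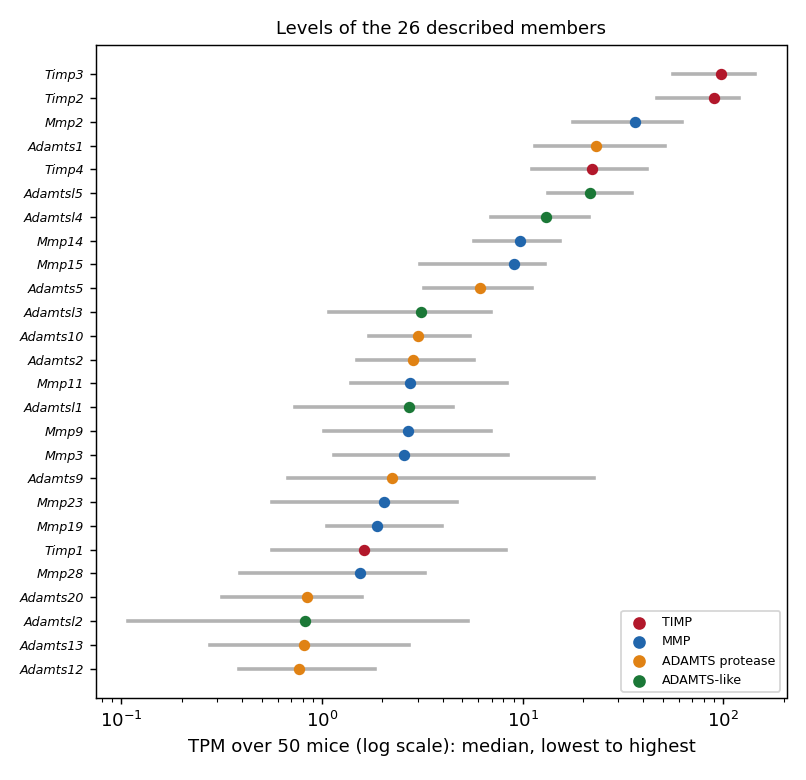
TPM of each described member on a log axis, with the median over 50 mice as a point and the line from the lowest to the highest mouse, coloured by family. Timp3 (97.5), Timp2 (89.5) and Mmp2 (36.4) had the highest medians, and Adamts9 and Adamtsl2 spanned the widest ranges.

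Between 8 and 28 months 10 of the 26 described members changed, 3 upward (Adamts9, Adamts13 and Mmp11) and 7 downward (Timp2, Mmp2, Mmp15, Mmp23, Mmp28, Adamts2 and Adamts12). This is 38.5% of the described members, near the 39.6% of all 12586 tested genes that passed in this comparison, of which 21% were higher and 18.7% lower. The calls are from edgeR's quasi-likelihood test on counts, fitted over all 6 ages and with Benjamini-Hochberg adjustment over all genes (false discovery rate, FDR, under 0.01). The median log2 fold change was 0.03 over the described members and 0.01 over all genes, and the median size of the change was 0.48 against 0.29. In 0 of the 26 members did the TPM of the 2 ages not overlap, against 3.8% of all genes. Both directions occurred within the MMPs and within the ADAMTS proteases. Adamts13 and Adamts12 met the TPM limit mainly at the ages where they were high. Their place among the described members is therefore not independent of their direction.

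**Figure D2:**
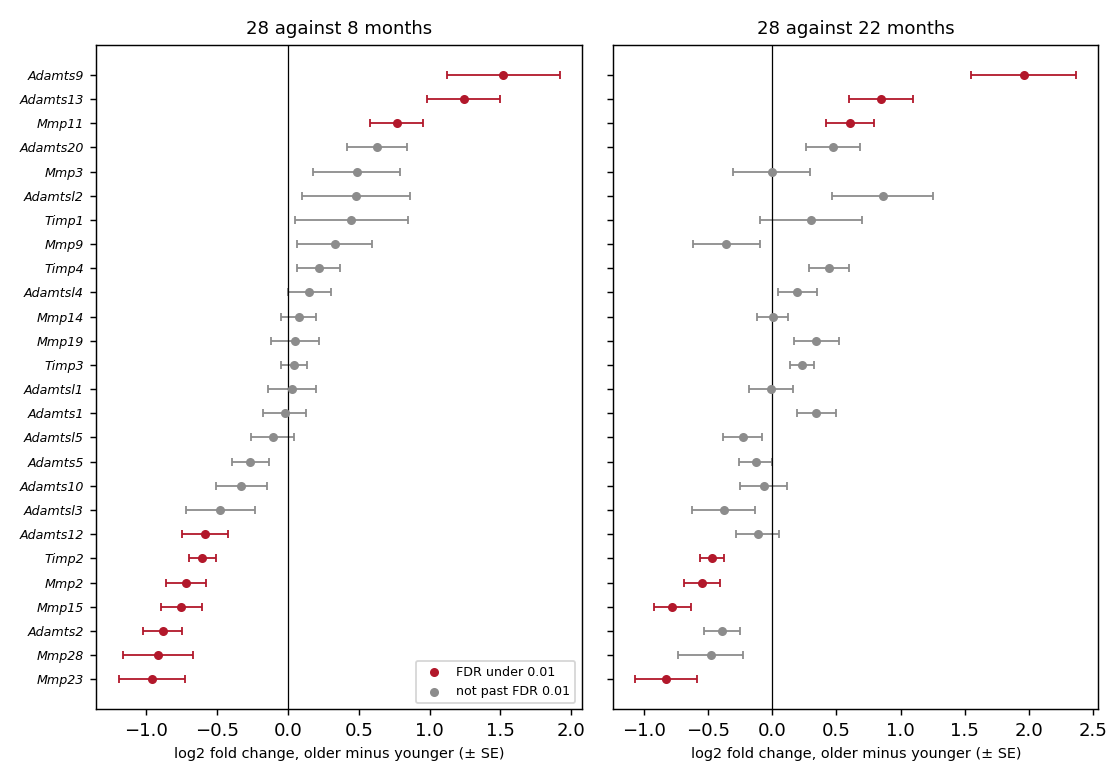
log2 fold change with its SE for the 26 described members from edgeR, at 28 against 8 months (left) and 28 against 22 months (right), with calls at FDR under 0.01 in red. Adamts9 was highest in both panels (1.52 and 1.96), and Timp2, Mmp2, Mmp15 and Mmp23 were called lower in both.

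Timp2, the inhibitor that also takes part in the activation of proMmp2, fell. At 8 months its level was 82.7 TPM in the lowest mouse, 102.3 at the median and 119 in the highest, and at 28 months 46.7, 70.2 and 90.0. Of the 9 mice of 28 months, 7 lay below all mice of 8 months. The medians in between were 98.6 at 18, 98.0 at 22, 84.5 at 24 and 75.6 TPM at 26 months, and the level was first past the threshold at 26 against 8 months (log2 -0.42 ± 0.09 SE, edgeR FDR = 0.00083). The fold change was 0.657 at 28 against 8 months (log2 -0.61 ± 0.09 SE, edgeR FDR = 2e-06) and 0.722 at 28 against 22 months (log2 -0.47 ± 0.09 SE, edgeR FDR = 0.00017).

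Timp3 did not pass the test in any comparison, although it is the most abundant member. Its level was 63.4, 102.0 and 144 TPM (lowest, median, highest) at 8 months and 93.6, 107 and 132 TPM at 28 months, with a log2 fold change of 0.04 and a 95% interval of -0.15 to 0.23 (edgeR FDR = 0.73). At 28 against 22 months the log2 fold change was 0.24 ± 0.09 SE (edgeR FDR = 0.037). The ratio of Timp3 to Timp2 TPM within a mouse had medians of 0.929, 0.914, 0.935, 1.04, 1.24 and 1.45 from 8 to 28 months. It was at most 1.26 in the mice of 8 months and at least 1.29 in those of 28 months; this ratio was chosen after the values were seen and is given without a test. Timp4, an inhibitor typical of heart and skeletal muscle, had a log2 fold change of 0.22 at 28 against 8 months (95% interval -0.10 to 0.53, edgeR FDR = 0.24) and of 0.44 at 28 against 22 months (edgeR FDR = 0.020). Timp1, which is induced in many inflamed tissues, ranged from 0.831 to 2.74 TPM at 8 months and from 1.13 to 6.90 TPM at 28 months (log2 0.45, 95% interval -0.35 to 1.25, edgeR FDR = 0.35). Neither Timp1 nor Timp4 passed FDR 0.01.

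Mmp2, the partner of Timp2, fell as well. Its level was 37.5 TPM in the lowest, 44.4 at the median and 58.0 in the highest mouse of 8 months, and 18.8, 29.5 and 37.6 TPM at 28 months, where 8 of 9 mice lay below all mice of 8 months. Medians were 39.4, 40.5, 30.8 and 27.7 TPM at 18, 22, 24 and 26 months. The first call of the quasi-likelihood test was at 26 against 8 months (log2 -0.64 ± 0.14 SE, edgeR FDR = 0.00071). With DESeq2 and with the likelihood ratio test Mmp2 already passed at 24 against 8 months. The fold change was 0.607 at 28 against 8 months (log2 -0.72 ± 0.14 SE, edgeR FDR = 4.8e-05), and Mmp2 was also lower at 28 than at 22 months (log2 -0.54 ± 0.14 SE, edgeR FDR = 0.0021). Since Mmp2 supplied a median of 56.6% of the summed MMP level at 8 months and 46.1% at 28 months, the MMP sum had medians of 82.2 TPM at 8 and 62.0 TPM at 28 months, while the sum without Mmp2 was 34.2 and 32.8 TPM. The summed TIMP level had medians of 224 and 213 TPM, and the within-mouse ratio of TIMP to MMP sums medians of 2.77 (range 2.15 to 3.30) and 3.42 (range 2.79 to 3.62), which overlap and were not tested.

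The other gelatinase, Mmp9, which neutrophils and macrophages carry, did not pass in this comparison (log2 0.33, 95% interval -0.21 to 0.87, edgeR FDR = 0.30). Its medians ran from 2.21 TPM at 8 months over 4.39 at 22 to 2.87 TPM at 28 months.

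Among the membrane-type MMPs, Mmp15 fell and Mmp14 did not pass. Mmp15 lay at 7.72, 9.94 and 11.8 TPM (lowest, median, highest) at 8 months, at medians of 10.6, 10.4, 9.78 and 7.53 TPM from 18 to 26 months, and at 3.07, 6.25 and 9.78 TPM at 28 months. The first call was at 26 against 8 months (log2 -0.53, edgeR FDR = 0.0046), and at 28 months 7 of 9 mice lay below all mice of 8 months. Its fold change was 0.593 at 28 against 8 months (log2 -0.75 ± 0.15 SE, edgeR FDR = 4e-05) and 0.584 at 28 against 22 months (edgeR FDR = 7.9e-05). For Mmp14 the log2 fold change was 0.08 with a 95% interval of -0.17 to 0.33 (edgeR FDR = 0.62).

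Adamts2, which removes the N-terminal propeptide of fibrillar procollagens, was the only member called at 24 against 8 months with edgeR. Levels were 3.06, 4.35 and 5.63 TPM (lowest, median, highest) at 8 months, and the medians were 3.52, 2.93, 2.63 and 2.14 TPM from 18 to 26 months. At 28 months they were 1.49, 2.21 and 5.69 TPM: 8 of the 9 mice lay below all mice of 8 months, and replicate 2 lay above them. The log2 fold change was -0.70 ± 0.14 SE at 24 against 8 months (edgeR FDR = 0.0025), -0.88 ± 0.14 SE at 28 against 8 months (edgeR FDR = 2e-06), and -1.05 in that comparison without replicate 2. The call at 24 months was lost in both limma fits and in 2 of 16 edgeR fits that left out 1 mouse (highest FDR 0.012, without replicate 4 of 8 months; the other was without replicate 8 of 24 months), and Mmp2 and Adamts12 passed beside Adamts2 with DESeq2 and with the likelihood ratio test. Against 22 months it did not pass (log2 -0.39, edgeR FDR = 0.022).

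The other 3 members that fell were low in level. Mmp23, a membrane-anchored MMP with a toxin-like domain, had 1.36, 2.39 and 4.14 TPM at 8 months and 0.561, 1.25 and 2.37 TPM at 28 months, with 6 of 9 mice below all mice of 8 months (log2 -0.96 ± 0.24 SE, edgeR FDR = 0.00072). Mmp28 (epilysin) had 0.830, 2.28 and 3.27 TPM at 8 months and 0.388, 1.18 and 2.06 TPM at 28 months, and only 1 mouse lay below the younger range (log2 -0.92 ± 0.25 SE, edgeR FDR = 0.0019). Its medians at the ages between were 1.42, 1.76, 1.5 and 1.37 TPM, none of which passed against 8 months. Those of Mmp23 were 2.22, 2.25, 1.68 and 1.81 TPM. Adamts12, a protease reported to cleave cartilage oligomeric matrix protein, had 0.568, 1.12 and 1.83 TPM at 8 months and 0.603, 0.698 and 1.04 TPM at 28 months, with no mouse below the younger range (log2 -0.59 ± 0.16 SE, edgeR FDR = 0.0026). Its medians between were 0.925, 0.891, 0.733 and 0.559 TPM. The Adamts12 call was lost without replicate 8 of 8 months (edgeR FDR = 0.011).

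**Figure D3:**
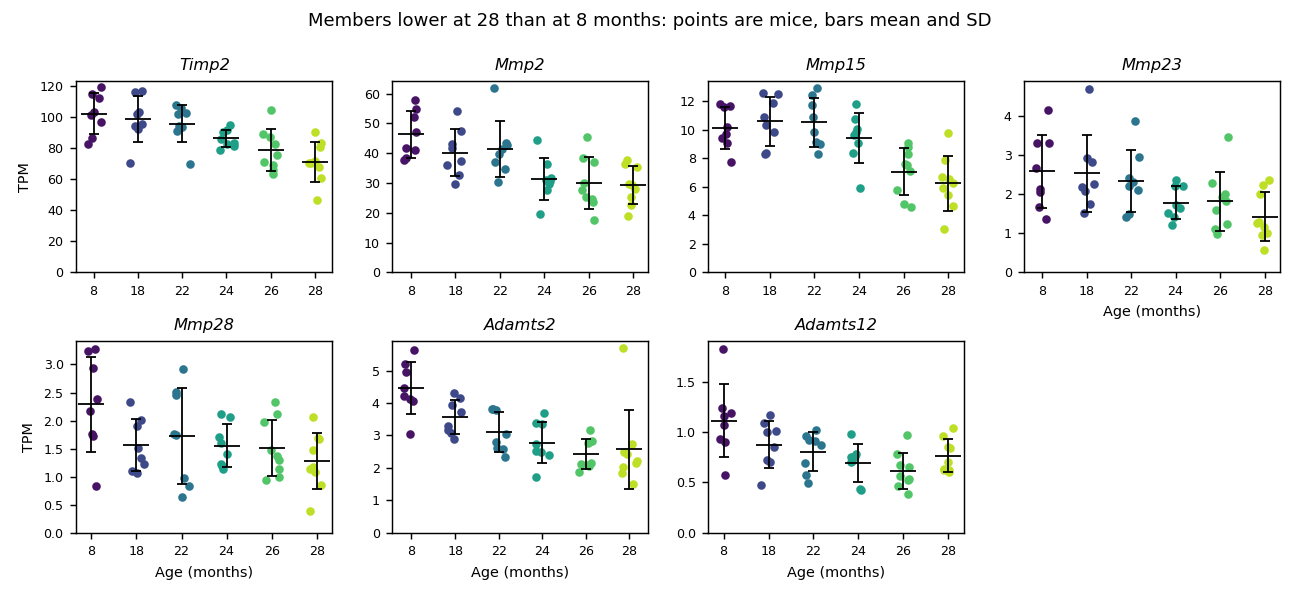
TPM of the 7 members called lower at 28 than at 8 months, against age in months; each point is a mouse, and bars give the mean and SD of 8 or 9 mice. With edgeR's quasi-likelihood test Adamts2 was called at 24 against 8 months, a call that both limma fits lost. Mmp2, Timp2, Mmp15 and Adamts12 were called at 26 against 8 months. With DESeq2 and with the likelihood ratio test Mmp2 and Adamts12 passed already at 24 against 8 months. Replicate 2 of 28 months stands out in Adamts2 at 5.69 TPM.

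Some markers of connective tissue cells fell as well, in a comparison where 18.7% of all tested genes were called lower. Of 6 fibroblast markers 4 fell from 8 to 28 months and none rose (Col1a1, Dpt, Lum and Pi16, median log2 of the list -1.11), and their summed level was 669 to 975 TPM at 8 months and 592 to 814 TPM at 28 months. Of 6 tendon markers 3 fell and none rose, with sums of 134 to 343 and 83.3 to 254 TPM, and all 4 adipocyte markers fell, with sums of 85.5 to 338 and 71.6 to 171 TPM. None of these lists had a member under 1 TPM in every mouse. Of 5 endothelial and 5 mural markers 1 each fell. The part of these cell types in the declines of Timp2, Mmp2 and Adamts2 was not tested. The labelled tissue carried its fast fibre markers, whose summed level was 102082 to 163454 TPM over the mice of 28 months.

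Adamts9, which cleaves versican and aggrecan, had the largest fold change of the 3 members that rose. It was present at 0.949, 2.23 and 5.33 TPM (lowest, median, highest) at 8 months, at medians of 1.77, 1.73, 2.01 and 3.14 TPM from 18 to 26 months, and at 1.37, 4.45 and 22.7 TPM at 28 months. Only 3 of the 9 oldest mice lay above all mice of 8 months, with replicate 1 at 16.1, replicate 2 at 22.7 and replicate 8 at 6.73 TPM, and the remaining 6 lay inside the younger range. The fold change was 2.87 at 28 against 8 months (log2 1.52 ± 0.40 SE, edgeR FDR = 0.0014), and it was lost without replicate 2 (log2 1.12, edgeR FDR = 0.013). At 28 against 22 months the fold change was 3.89 (log2 1.96 ± 0.41 SE, edgeR FDR = 0.00027) and the call held without any single mouse, with 1.56 on the log2 scale without replicate 2.

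Adamts13, the protease that cleaves von Willebrand factor, rose from a low level. It met the TPM limit only through mice of 22 months or more. Its medians were 0.590, 0.533, 0.819, 0.873, 1.16 and 1.57 TPM from 8 to 28 months, with 0.291 to 0.747 TPM in the mice of 8 months and 0.494 to 2.70 TPM in those of 28 months. Of the latter, 7 of 9 lay above all mice of 8 months. The fold change was 2.37 at 28 against 8 months (log2 1.24 ± 0.26 SE, edgeR FDR = 0.00011) and 1.80 at 28 against 22 months (edgeR FDR = 0.0063), and the second call was lost in 10 of 17 fits that left out 1 mouse, with the highest FDR of 0.028 without replicate 1 of 28 months. Adamtsl2, which binds fibrillin and regulates TGF-beta availability, lies beside it on chromosome 2 (both genes between 26973416 and 27108981, GRCm38). It did not pass (log2 0.48, 95% interval -0.29 to 1.25, edgeR FDR = 0.29), and 1 mouse, replicate 1 of 28 months at 5.35 TPM, set its direction, since the log2 fold change was -0.19 without it.

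Mmp11 (stromelysin-3, an MMP that is activated by furin inside the cell) passed at 28 months and not before. It lay at 1.95, 2.32 and 3.36 TPM at 8 months, at medians of 2.63, 2.41, 2.55 and 2.66 TPM from 18 to 26 months, and at 3.07, 4.12 and 8.35 TPM at 28 months, with 6 of 9 mice above all mice of 8 months. The fold change was 1.70 at 28 against 8 months (log2 0.77 ± 0.19 SE, edgeR FDR = 0.00071) and 1.53 at 28 against 22 months (edgeR FDR = 0.0080). As for Adamts13, the second call was lost in 10 of 17 fits without 1 mouse (highest FDR 0.042, without replicate 5 of 28 months).

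Mmp3 and the proteoglycanases Adamts1, Adamts5 and Adamts20 did not pass. Mmp3 ranged from 1.38 to 3.14 TPM at 8 months and from 1.88 to 7.45 TPM at 28 months (log2 0.49, 95% interval -0.13 to 1.10, edgeR FDR = 0.18). Adamts1 had a log2 fold change of -0.02 (95% interval -0.33 to 0.28, edgeR FDR = 0.90), and its lower medians lay between, with 26.7 TPM at 8, 19.9 at 18, 21.0 at 22 and 29.6 TPM at 28 months. Its neighbour Adamts5, within the same stretch of chromosome 16 between 85793827 and 85901828 (GRCm38), had a log2 fold change of -0.26 (95% interval -0.53 to -0.0031, edgeR FDR = 0.081). Adamts20 was just outside the threshold (log2 0.63 ± 0.21 SE, edgeR FDR = 0.012) and inside it with DESeq2 (FDR = 0.0075). The remaining members (Adamts10, Adamtsl1, Adamtsl3, Adamtsl4, Adamtsl5 and Mmp19) had log2 fold changes of -0.48 to 0.15 and did not pass. No ADAMTS-like gene passed at any age.

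**Figure D4:**
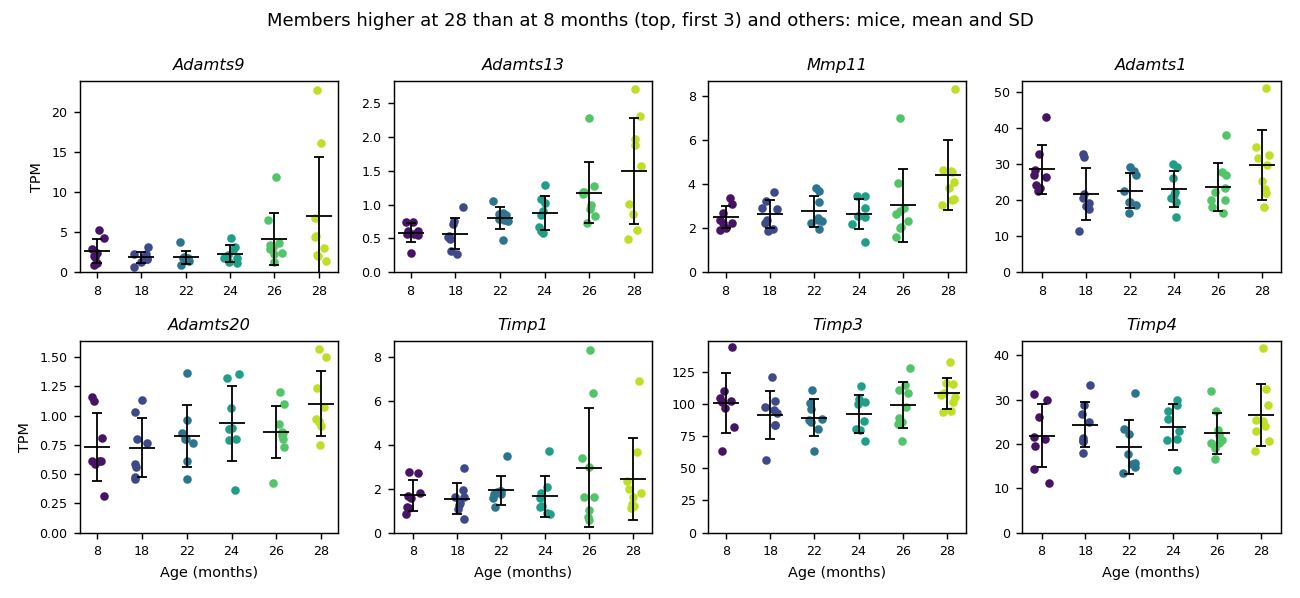
TPM against age in months of the 3 members called higher at 28 than at 8 months (Adamts9, Adamts13, Mmp11) and of 5 members that did not pass; each point is a mouse, bars give mean and SD, and the axes begin at 0, which hides the lower end of the SD bar of Adamts9 at 28 months. Of the 9 mice of 28 months, 3 lay above all mice of 8 months in Adamts9, and 7 in Adamts13.

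Some markers of neutrophils and macrophages rose between 8 and 28 months, a comparison in which 21% of all tested genes were called higher. All 3 tested neutrophil markers (Csf3r, S100a8 and S100a9) and 3 of 6 macrophage markers (C1qb, Csf1r and Mrc1) rose from 8 to 28 months and none fell. Their summed levels had medians of 5.14 and 27.7 TPM for neutrophils and 88.0 and 127 TPM for macrophages, while at 22 months the medians were 24.9 and 114 TPM. At 28 against 22 months 0 of the 3 neutrophil and 0 of the 6 macrophage markers passed with edgeR. The lowest FDR was 0.039 for S100a8 (log2 1.50) and 0.020 for Mrc1 (log2 0.51), while the macrophage marker Adgre1 was at log2 -0.30. Replicate 2 of 28 months held the highest sum of both lists among the mice of its age, 278 and 229 TPM, and the highest level of Adamts1, Adamts2, Adamts9, Mmp14, Mmp19 and Timp4 of all 50 mice, while its Timp2 (46.7 TPM), Mmp15 (3.07 TPM) and Mmp28 (0.388 TPM) were the lowest of all. Its summed fast fibre level of 102082 TPM was also the lowest. The part of these cells in the rises of Adamts9, Adamts13 and Mmp11 was not tested. Without this mouse all called members but Adamts9 stayed past the threshold.

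Over the earlier ages few members were called. At 18 against 8 months and at 22 against 8 months 0 of the 26 passed with edgeR and with DESeq2. Of all genes 0.0715% and 0.0397% passed with edgeR. An unadjusted edgeR p under 0.05 was reached by 4 and 5 members, against 460 and 1134 of all 12586 genes. At 24 against 8 months edgeR called Adamts2 alone, with 0.612% of all genes. DESeq2 called 3 members, for which the share of all genes is not given. By 26 against 8 months 6 passed (23.1% against 18.4% of all genes): Adamts13 higher, and Adamts12, Adamts2, Mmp15, Mmp2 and Timp2 lower. Between 24 and 26 months 0 passed with edgeR and with DESeq2, as did 0% of all genes with edgeR. Here 3 members (Adamts9, Mmp15 and Timp1) were under an unadjusted edgeR p of 0.05, against 2202 of all 12586 genes. At 28 against 22 months 7 passed (26.9% against 27.7%): Adamts9, Adamts13 and Mmp11 higher, Timp2, Mmp2, Mmp15 and Mmp23 lower. A test over any difference between ages called 9 members (34.6% against 35.4% of all genes), namely the same 10 as at 28 against 8 months without Mmp28. Comparisons with the same age share its mice and are not independent of each other.

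Within ages, the levels of some enzyme and inhibitor pairs went together across mice. For 7 pairs taken from known partnerships, log2(TPM + 1) was correlated after the mean of each age was subtracted, and p was taken from 100000 permutations of mice within ages, two-sided, with adjustment over the 7 pairs. Of 9 pairs chosen, the 2 with Adamts4 were left out because it reached 1 TPM in 2 mice only. Mmp2 and Timp2 had the highest correlation, r = 0.74 and rho = 0.82 over 50 mice, each with the smallest permutation p that can be given (1e-05; adjusted p = 3.5e-05 for r and 2.3e-05 for rho), and r = 0.74 without the 2 mice farthest from the median of Mmp2. Adamts5 and its inhibitor Timp3 reached r = 0.67 and rho = 0.64 with the same smallest p (1e-05; adjusted p = 3.5e-05 and 2.3e-05). Without the 2 mice most extreme in Adamts5 r was 0.68, but on log2(CPM + 1) over 50 mice r was 0.50 and rho 0.53 (permutation test, adjusted p = 0.00059 and 0.00049). For Mmp3 and Timp1 r was 0.51 (permutation p = 0.0017, adjusted p = 0.0039) and rho 0.49 (permutation p = 0.0014, adjusted p = 0.0020). Leaving out the 2 mice farthest in Mmp3 gave r = 0.51.

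Mmp2 and Mmp14 had r = 0.35 (permutation p = 0.019, adjusted p = 0.034) and rho = 0.32 (permutation p = 0.034, adjusted p = 0.040). Leaving out the 2 mice farthest in Mmp2 gave r = 0.38, but on log2(CPM + 1) r was 0.21 (adjusted p = 0.21). Over all mice the pair of Mmp14 and Timp2 did not pass (r = 0.19, permutation p = 0.19, adjusted p = 0.19; rho = 0.23, permutation p = 0.11, adjusted p = 0.11), nor did it when the 2 mice farthest in Mmp14 were left out (r = 0.19). It did pass without replicate 2 of 28 months, with r = 0.34 (permutation p = 0.015, adjusted p = 0.015) and rho = 0.30 (permutation p = 0.039, adjusted p = 0.039). Adamts2 and Col1a1, which encodes a chain of its substrate, had r = 0.35 (permutation p = 0.037, adjusted p = 0.052) and rho = 0.62 (permutation p = 1e-05, the smallest that can be given, adjusted p = 2.3e-05). The difference between r and rho rested on 1 mouse: r was 0.71 without replicate 2 of 28 months, where Adamts2 was high, and 0.71 without the 2 mice farthest from the median of Adamts2. In the same way Adamts2 and Col3a1 had r = 0.24 (permutation p = 0.17, adjusted p = 0.19) and rho = 0.48 (permutation p = 0.00065, adjusted p = 0.0011), and r = 0.54 without that mouse and 0.52 without the 2 farthest. All genes of a library share its depth and composition, whose part in these correlations was not tested.

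**Figure D5:**
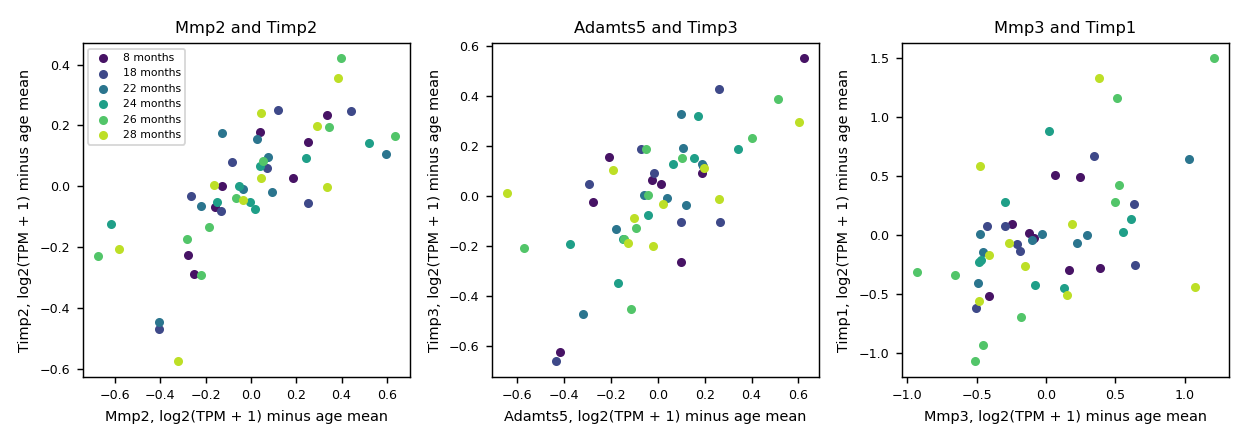
Mouse-by-mouse levels of 3 pairs, as log2(TPM + 1) minus the mean of the mouse's age, coloured by age in months; each point is 1 of 50 mice. Mmp2 and Timp2 (r = 0.74) and Adamts5 and Timp3 (r = 0.67) rise together more tightly than Mmp3 and Timp1 (r = 0.51).

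The substrates and upstream enzymes of the system are given for 28 against 8 months, where 39.6% of all tested genes passed, 21% higher and 18.7% lower. The count of each list below is to be read against these shares. Of 18 tested matrix substrates 10 fell and 1 rose, with a median log2 fold change of -0.64. The largest declines were those of the fibrillar collagens Col3a1 (log2 -2.28 ± 0.30 SE, edgeR FDR = 1.3e-07) and Col1a1 (log2 -2.08 ± 0.33 SE, edgeR FDR = 3.1e-06), both larger than that of any member, and the riser was thrombospondin Thbs1 (log2 0.89, edgeR FDR = 0.0068). Of 6 plasminogen system genes, which form a second cascade of matrix proteolysis, 3 fell and none rose, with Serpine2, an inhibitor of plasminogen activators, at -0.67 and the activator Plat at -0.58 on the log2 scale (edgeR FDR = 3.7e-07 and 0.00088).

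Of 9 other inhibitors and cofactors 3 rose and 4 fell. Spock2, a matrix proteoglycan, had a log2 fold change of 1.0 (edgeR FDR = 1.5e-06) and Furin, the convertase that activates several members, of 0.63 (edgeR FDR = 9.6e-07). Pcolce, which enhances removal of the procollagen C-propeptide, was at -1.06 (edgeR FDR = 4.1e-06), and Papln, a papilin related to the ADAMTS family, at -1.56 (edgeR FDR = 0.00026). Of 15 other matrix proteases 2 rose and 4 fell: the cathepsins Ctsl and Ctss were at 1.30 and 1.06, and Bmp1, the procollagen C-proteinase, and Fap, a fibroblast surface protease, at -0.96 and -0.77 (edgeR FDR = 9.2e-06, 0.00017, 5.5e-07 and 7.3e-05). The mean of Ctsl was 129 TPM (SD 7.7) at 8 months and 345 TPM (SD 262) at 28 months. The summed level of this list at 28 months had a median of 644 TPM and was highest in replicate 2, at 1468 TPM. Of 7 AP-1, NF-kB and ETS factors 3 rose and 1 fell, with Fosl2 at 2.0, Ets2 at 0.55 and Fosb at -2.64 (edgeR FDR = 2e-05, 0.00048 and 0.00026). At 28 months the SD of Fosl2 (37.5 TPM) exceeded its mean (30.3 TPM). Fits that left out 1 mouse are not given for these partner genes.

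The 21 members under the TPM limit comprised the 2 collagenases in the set (Mmp8 and Mmp13) and 4 of 6 membrane-type MMPs. They also held Mmp10 and Mmp12, 2 of the 4 members grouped with the stromelysins, and 3 of 6 other MMPs. Of the ADAMTS proteases they held 2 of 3 procollagen N-proteinases, 3 of 7 proteoglycanases and 5 of 8 others. Mmp1a, Mmp1b and Mmp7 were not analysed and are in none of these groups. All 4 TIMPs and all 5 ADAMTS-like genes were above it. The highest single value was that of Mmp8, the neutrophil collagenase, at 4.06 TPM in replicate 2 of 28 months, where the other mice of that age lay between 0.14 and 0.45 TPM. Of these 21, 5 had enough counts to be tested, and Mmp12, the macrophage elastase, rose: 0.231, 0.374 and 0.505 TPM at 8 months and 0.459, 0.832 and 1.98 TPM at 28 months (log2 0.91 ± 0.28 SE, edgeR FDR = 0.0057). Adamts4, an inducible aggrecanase, was highest in replicates 2 and 1 of 28 months, at 2.42 and 1.56 TPM, the same 2 mice that had the highest Adamts9.

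Sequencing depth was 13607229 to 21267375 counts per mouse. No pair of mice of one age had counts as alike as sampling noise alone would give, since the lowest chi-square per degree of freedom was 6.36.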

How the data were processed

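Gastrocnemius RNA of 50 mice was sequenced with a stranded poly(A) protocol (1 library per mouse). Per the labels and the study's methods, the authors trimmed reads with cutadapt 1.9.1, assigned them with kallisto 0.43.1 to protein-coding transcripts (GRCm38), split reads between compatible transcripts and summed them per gene, so that paralogs may share reads. The deposited tables hold these counts as whole numbers and TPM values normalised by the authors. TPM was used for levels and counts for tests. Groups are the ages in the labels, which name no batch; the sample numbers in the labels run in the order of age, so that age and any order of processing cannot be told apart.

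Genes that reached 1 CPM in 8 or more mice were fitted with edgeR 4.0.16 (R 4.3.3; TMM factors, quasi-likelihood F test, 1 fit over 6 ages), with Benjamini-Hochberg adjustment over 12586 genes and an FDR threshold of 0.01. SEs are the log2 fold change divided by the root of F, and 95% intervals use the residual degrees of freedom of the fit. limma 3.58.1 on log2(TPM + 1) and log2(TPM + 0.1) and DESeq2 1.42.0 served as alternatives, and the fits were tested on simulated data. Correlations used log2(TPM + 1). Promoters are from RefSeq (GRCm38.p6).

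The members and gene lists were chosen with earlier results of these data known. Members past the threshold at 28 against 8 months or over any age are given by mouse, other members by range, and in each partner list the 2 largest rises and 2 largest falls. Exceptions chosen after values were seen are Adamts20, Adamtsl2, Mmp8, Mmp12, Adamts4 and the Timp3 to Timp2 ratio. Mmp1a, Mmp1b, Mmp7, Adamts6, Jun, Jund and Fbn2 were not analysed here.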

Additional observations from a re-analysis of the deposited data

Results flagged for a closer look

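In 19 of 156 groups of 1 described member and 1 age, the highest or lowest mouse stood apart from the others of its age by Dixon's test. About 5% of groups would be flagged if values were normally distributed. TPM was used without a log and the groups share mice, so an excess over that rate was not tested. The values belonged to 13 mice. Replicate 5 of 22 months held 4 of them, with Mmp2 at 62.0, Mmp3 at 7.0, Timp1 at 3.48 and Adamtsl2 at 2.21 TPM, all highest of their age. Replicate 2 of 28 months held 3, with Adamts1 at 51.0, Adamts2 at 5.69 and Mmp3 at 7.45 TPM. Replicate 1 of 26 months held 2, with Mmp11 at 7.02 and Adamts13 at 2.27 TPM. Single high values were Mmp11 at 8.35 TPM (28 months, replicate 5), Timp1 at 3.70 TPM (24 months, replicate 1) and at 6.90 TPM (28 months, replicate 9), Adamtsl4 at 21.3 TPM (22 months, replicate 4), Mmp9 at 4.93 TPM (8 months, replicate 1), Mmp23 at 4.68 TPM (18 months, replicate 5), and Adamts9 at 3.75 TPM (22 months, replicate 1) and at 11.9 TPM (26 months, replicate 6). Single low values were Adamts13 at 0.291 TPM (8 months, replicate 8) and Timp2 at 69.4 TPM (22 months, replicate 8).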

How the results depend on the processing

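At 28 against 8 months the number of called members was 7 to 11 over the 8 alternatives, against 10. Calls over all genes ran from 3396 of 12075 with only the 2 ages fitted to 5181 of 12586 with DESeq2, against 4988 of 12586. For the other comparisons the calls over all genes under each alternative are not given. A shift over all genes therefore cannot be told apart there from a change in the members. At 24 against 8 months the single call became 3 with DESeq2, 3 with the likelihood ratio test, 2 with only the 2 ages fitted, 2 with the replicate block and 0 with limma on log2(TPM + 1) or log2(TPM + 0.1), and 0 to 2 when 1 mouse was left out (0 without replicate 8 of 24 or replicate 4 of 8 months). At 28 against 22 months the 7 calls became 4 with limma on log2(TPM + 0.1) and 4 to 7 when 1 mouse was left out (4 without replicate 1 of 28 months), and over any age the 9 became 5 with limma on log2(TPM + 0.1). Directions at 28 against 8 months that turned were all of members not called: Adamts1 was 0.034 on the log2 scale in both limma fits and -0.13 to 0.046 without 1 mouse, Adamtsl1 -0.027 with upper-quartile factors and -0.088 to 0.14 without 1 mouse, Mmp19 -0.012 and -0.056 to 0.11, Timp3 -0.013 and -0.012 to 0.095, and Adamtsl2 -0.19 to 0.62 without 1 mouse. Adamts9 was not called in either limma fit or with only the 2 ages (FDR = 0.018), Adamts12 in neither limma fit, and Mmp28 not with log2(TPM + 0.1). The correlation of Mmp14 with Timp2 was -0.073 on log2(CPM + 1) and 0.19 to 0.34 without 1 or 2 mice (past 0.05 without replicate 2 of 28 months), and that of Mmp2 with Mmp14 was 0.21 on log2(CPM + 1). Adamts2 with Col3a1 lay at 0.52 to 0.54 and with Col1a1 at 0.706 to 0.709 without 1 or 2 mice; the exclusion of replicate 2 of 28 months was chosen after seeing the data. The cause of these changes was not tested. Deviations from the age mean were also correlated between mice of different ages. The 121 pairs with equal replicate numbers had a median correlation of 0.051, with 47 over 0.1. For the 920 pairs with different numbers the median was -0.0059, with 227 over 0.1. The 8 equal-number pairs of 8 and 28 months had a median of 0.08, with 2 over 0.1, too few to settle whether equal numbers link mice. The replicate block changed no other count of calls by more than 1.5 times. Depth limits the members with the fewest counts most, with 838 counts over all mice for Timp1 and 869 for Adamtsl3.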
